A study of Homo sapiens with 6 samples.

Results

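The heat shock proteins and their DNAJ partners were measured as transcripts in HT-1080 cells, an established human fibrosarcoma line, with and without interferon gamma (IFNg). Members were taken by symbol: every row of the deposited gene table that begins with HSP90, HSPA, HSPB, HSPD, HSPE, HSPH, DNAJA, DNAJB or DNAJC and has a read in at least 3 of the 6 libraries. Of 71 symbols with such a beginning, 65 were members, out of 17187 genes in the table. DNAJB13 and HSPA7 had reads in 1 and 2 libraries, and HSPBAP1, HSPBP1 and the antisense genes DNAJC9-AS1 and DNAJC27-AS1 were left out by name. The 65 comprise 13 HSPA, 5 HSP90, 4 HSPB, 3 HSPD or HSPE and 1 HSPH symbols, with 3 DNAJA, 9 DNAJB and 27 DNAJC symbols. HSP90AB4P and HSP90B2P are pseudogenes, and HSPE1-MOB4 joins a pair of neighbouring genes. The 3 control libraries came from cells given PBS and the 3 IFNg libraries from cells given recombinant IFNg at 10 ng/ml for 8 h. All 6 carry the genotype label WT and share the cell line, so they stand for 1 line, and the labels do not say whether libraries of a group were separate cultures. The p-values therefore measure only the spread between these libraries, which may be technical.

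HSP70 proteins, encoded by HSPA genes, bind exposed hydrophobic stretches of other proteins in cycles of ATP binding and hydrolysis. J-domain proteins, encoded by DNAJ genes, bring clients to HSP70 and trigger hydrolysis, and exchange factors such as HSPH1 and the BAG proteins then release the nucleotide. HSP90 acts on clients handed over by HSP70, HSPD1 and HSPE1 form the chaperonin of mitochondria, and small HSPB proteins hold unfolded chains. The compartments have separate sets, with HSPA8, HSPA1A and HSPA1B in the cytosol and nucleus, HSPA5 and HSP90B1 in the endoplasmic reticulum, and HSPA9 in mitochondria. Heat shock factor 1 (HSF1) induces many cytosolic members through heat shock elements, which are inverted repeats of GAA, whereas members of the endoplasmic reticulum are targets of the unfolded protein response. HSP70 and HSP90 are also known to take part in the handling of peptides and antigens.

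Libraries held between 59556948 and 83501954 reads assigned to genes. Values are normalised read counts, meaning reads divided by 1 size factor per library. They carry no correction for transcript length, and members are therefore compared between groups and not with each other. Each of 53 members had at least 100 reads in every library, and 12 had fewer in at least 1. On principal components of all kept genes, the first component (32.8% of the variance) separated the groups. The second (20%) placed IFNg 3 at -60.66 against 35.31 and 56.27 for the other IFNg libraries. Control 3 was also the lowest control on it, at -24.97 against 5.33 and -11.28 for control 1 and 2. Of the mesenchymal markers on the list, VIM was read at 314888 to 406141, CD44 at 117396 to 132646, SPARC at 44936 to 63726, S100A4 at only 19.51 to 83.52, and THY1 was not analysed here. Of the markers of other cell types, the epithelial CLDN4 reached at most 78.04, the endothelial PECAM1 39.02 and the leukocyte PTPRC 44.6, while LYZ was at 97.56 to 157.

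IFNg raised a small set of cytosolic HSP70 system genes, and no member was called lower. HSPA8, the constitutive cytosolic HSP70, its stress-inducible relatives HSPA1A and HSPA1B, the related HSPA1L, the J-domain partner DNAJA1 and the clathrin uncoating J protein DNAJC6 rose. Their ratios of means ranged from 1.61 (HSPA8) to 3.05 (HSPA1B). In limma's test on log2(value + 1) with Benjamini-Hochberg adjustment at 0.05 over 15546 genes, 6 of 65 members were higher, where 3.27% of all genes tested were called higher. None was lower, where 1.05% of all genes were. At an unadjusted p under 0.05, limma gave 9 members higher and 2 lower, but the share of all genes at that threshold was not counted. After adjustment, edgeR and DESeq2 called 5 and 7 members higher (3.47% and 4.59% of all genes they tested). Both also called 0 members lower (1.22% and 2.2% of all genes). The count depended on the variance model and on single libraries: limma without the variance trend called 1 member higher, HSPA1L, and 1.79% of all genes. With the trend it called 3 members without control 1, control 2, IFNg 1 or IFNg 2, where 2.62%, 2.28%, 2.12% and 2.19% of all genes were higher. A term for libraries numbered 3 gave 8 members higher and 2 lower, where 6.21% and 3.69% of all genes were called. The median log2 difference was 0.06 over the 65 members and -0.01 over all genes tested. Groups did not overlap in 14 members that were higher and 2 that were lower, beside 10.7% and 9.28% of all genes tested. All 6 genes that rose were on the list of cytosolic or nuclear members, of which 34 were measured. None of 14 members of the endoplasmic reticulum and none of 10 of mitochondria passed in limma.

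**Figure D1:**
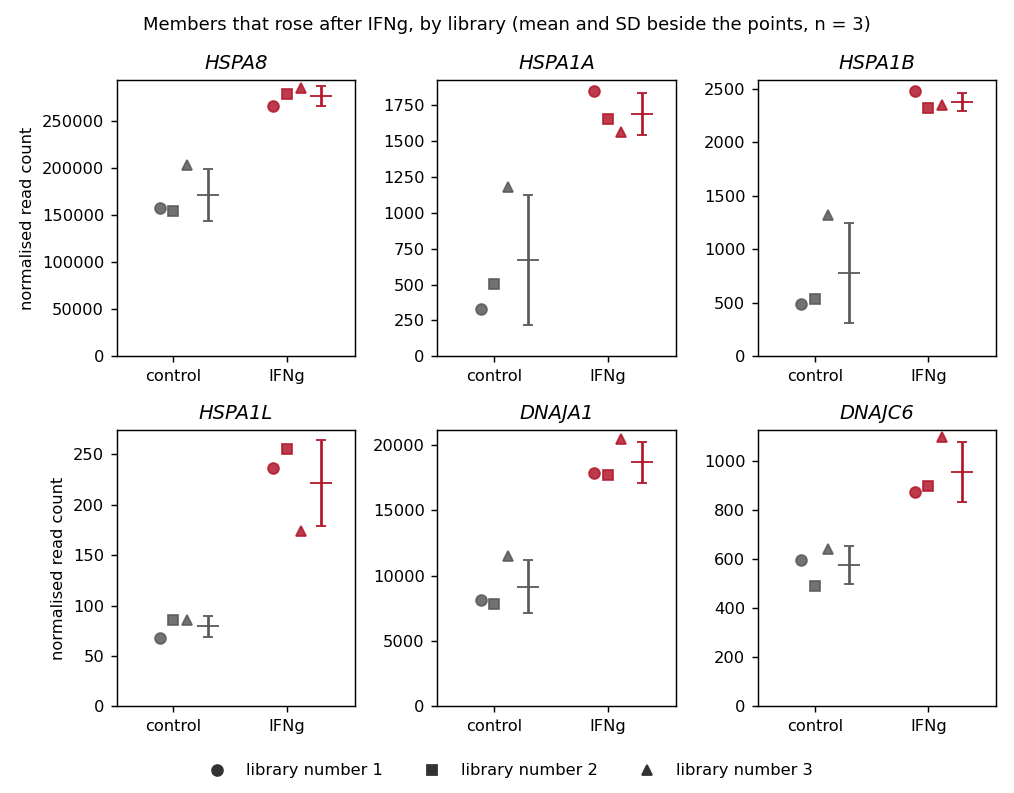
Normalised read count (y axis, linear from 0) of HSPA8, HSPA1A, HSPA1B, HSPA1L, DNAJA1 and DNAJC6 in control (grey) and IFNg (red) libraries, 1 point per library, shaped by library number, with the mean and SD (n = 3) beside the points. In each of the 6 genes the lowest IFNg library lies above the highest control library, and control 3 is the highest control for HSPA8 (203261), HSPA1A (1181), HSPA1B (1319) and DNAJA1 (11488).

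HSPA8 encodes HSC70, which folds new chains, uncoats clathrin vesicles and carries proteins to lysosomes. Its normalised read counts were 157387, 154277 and 203261 in control 1, 2 and 3 and 265779, 279388 and 285612 in IFNg 1, 2 and 3. The lowest IFNg library was well above control 3, which itself exceeded the other controls. Means were 171642 ± 27428 and 276927 ± 10143 (SD, n = 3 each), apart by 0.70 ± 0.12 on the log2 scale (SE of the fit; limma adjusted p = 0.00437). The call was kept without each library in turn, with an adjusted p of up to 0.044 (without control 2), but not without the variance trend (0.102). HSPA8 took 0.248% ± 0.0436 of all reads in control and 0.399% ± 0.0153 in IFNg libraries. Among reads of the 13 HSPA genes, its share was 51.3%, 52.5% and 59.7% in the controls and 66.4%, 66.8% and 66.3% in the IFNg libraries. The IFNg libraries thus lay within 1 percentage point of each other, while control 3 lay between them and the other controls. Of 50-base stretches in annotated HSPA8 transcripts, 8.23% also occur in another gene's transcripts, among them HSPA8 pseudogenes such as HSPA8P1.

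HSPA1A and HSPA1B encode almost the same stress-inducible HSP70 protein. HSPA1A counts were 328, 501 and 1181 in the controls and 1846, 1655 and 1563 in the IFNg libraries, and HSPA1B counts were 486, 535 and 1319 against 2477, 2317 and 2348. For both genes control 3 stood at more than 2 times the other controls, yet below every IFNg library. The difference for HSPA1B was 1.76 ± 0.30 on the log2 scale (limma adjusted p = 0.00398), and it kept its call without each library, with an adjusted p of up to 0.0299, but not without the variance trend (0.148). For HSPA1A it was 1.54 ± 0.35 (adjusted p = 0.0277), a call that did not hold without control 1 (0.102), control 2 (0.132), IFNg 1 (0.126), IFNg 2 (0.0812) or IFNg 3 (0.0847). It was also missed by edgeR (adjusted p = 0.056) and DESeq2 (0.144). Of 50-base stretches of HSPA1A transcripts, the read length of this study, 71.3% also occur in HSPA1B, so the split of reads between these genes is uncertain. In addition, 33.2% of the stretches of HSPA1A and 35.28% of those of HSPA1B occur in the annotated gene AL671762.1. How reads from such stretches were counted is not known. The sum of HSPA1A and HSPA1B does not depend on the split between these 2 genes, though it may depend on that counting. It was 814, 1036 and 2500 in the controls and 4323, 3973 and 3911 in the IFNg libraries. The summed count thus separates the groups as each gene did, with the same high control 3.

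HSPA1L, a relative expressed mainly in testis, was read far less. Its counts were 67.5, 85.2 and 85.7 in the controls and 237, 255 and 174 in the IFNg libraries, from 253 and 652 reads in all. Control 3 did not stand apart for this gene, and IFNg 3 was the lowest of the IFNg libraries. The groups were 1.46 ± 0.33 apart on the log2 scale (limma adjusted p = 0.0282), a call that did not hold without control 1 (0.095), control 2 (0.081), IFNg 1 (0.134) or IFNg 2 (0.134). Of its 50-base stretches, 2.44% occur in HSPA1A as well. HSPA1L lies head to head with HSPA1A on chromosome 6 (GRCh38.p14, RefSeq), with 259 bases between the start sites used here. The 2 genes do not overlap in this annotation. No source used here gives the annotation or the strand setting of the counting, so how reads between these starts were treated is not known.

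The 3 genes lie in the class III part of the major histocompatibility complex, among genes that IFNg is known to induce elsewhere in the complex. Of 12 measured neighbours from a list of 13, the complement genes C2 and CFB rose and none fell. C2 went from 2.14, 25.05 and 36.99 in the controls to 405, 427 and 427 in the IFNg libraries (log2 difference 4.85 ± 0.76, limma adjusted p = 0.00222; 0.108 without the variance trend). CFB went from 5.36, 15.03 and 0 to 83.6, 40.3 and 78.8 (3.81 ± 0.96, 0.0466), a call that did not hold without control 1 (0.114), IFNg 1 (0.187), IFNg 2 (0.0899) or IFNg 3 (0.164), in edgeR (0.101) or without the variance trend (0.231). LSM2, on the other side of HSPA1L, did not pass, with counts of 2061 to 2744 over the 6 libraries. The median log2 difference of these neighbours was -0.10.

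DNAJA1, a farnesylated partner of HSPA8 and HSPA1A, had the smallest adjusted p of the members. Its counts were 8159, 7793 and 11488 in the controls and 17836, 17706 and 20501 in the IFNg libraries. As with HSPA8, control 3 was the highest control and it stayed below every IFNg library. Means were 9146 ± 2036 and 18681 ± 1577, a ratio of 2.04, or 1.05 ± 0.14 on the log2 scale (limma adjusted p = 0.000506). The call was kept without each library, with an adjusted p of up to 0.00629, but not without the variance trend (0.0714). The other DNAJA genes did not pass: DNAJA2 was 6375 ± 542 and 7172 ± 124, and the mitochondrial DNAJA3 was 5759 ± 502 and 5547 ± 138. DNAJA1 therefore went from 42.7% ± 4.54 to 59.4% ± 1.92 of the reads of the 3 DNAJA genes.

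DNAJC6 encodes auxilin, which brings HSPA8 to clathrin coats and is best known from neurons. Its counts were 597, 493 and 642 in the controls and 872, 898 and 1098 in the IFNg libraries. The groups did not overlap, and library 3 was the highest of each group. The log2 difference was 0.73 ± 0.18 (limma adjusted p = 0.0457), close to the threshold. The call was lost without control 1 (0.106), control 2 (0.217), IFNg 1 (0.112), IFNg 2 (0.117) or IFNg 3 (0.16). The other 26 DNAJC genes did not pass.

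The genes that rose share matches to the heat shock element near a RefSeq start, and these are shown. Each line gives 30 bases on the gene's own strand, 5′ to 3′ (GRCh38.p14, not the build of the deposited table). Capitals mark matches to GAANNTTC or TTCNNGAA, the head-to-head and tail-to-tail pairs of the element, searched on both strands (each reads the same on both) and merged where they overlap.
HSPA8, far match, chr11:123062345-123062374, minus strand: gcgagcttGAAAGTTCCAGAAcgctgcggt
HSPA8, near match, chr11:123062170-123062199, minus strand: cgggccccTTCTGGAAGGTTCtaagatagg
HSPA1A, chr6:31815426-31815455, plus strand: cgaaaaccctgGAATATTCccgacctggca
HSPA1B, chr6:31827622-31827651, plus strand: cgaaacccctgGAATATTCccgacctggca
DNAJA1, upstream match, chr9:33025064-33025093, plus strand: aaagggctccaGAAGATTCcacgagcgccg
DNAJA1, match inside the transcript, chr9:33025268-33025297, plus strand: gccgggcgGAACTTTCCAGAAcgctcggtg
DNAJC6, chr1:65309563-65309592, plus strand: cggcggcttcgcctcgcccggcGAAGCTTC
The matches of HSPA8 hold 3 alternating units each and begin 230 and 55 bases before the start that the RefSeq table uses, which lies 326 bases inside the outermost end of the annotated gene. DNAJA1 holds a pair of units beginning 198 bases before its start and a run of 3 units from base 4 of the transcript. HSPA1A and HSPA1B hold the same letters, beginning 106 and 105 bases before their starts, in upstream windows that are 94.4% identical over 249 aligned bases. The window of HSPA1L is nearly that of HSPA1A read on the other strand (241 bases shared) and holds the same match, so these 3 genes are not separate cases. The match of DNAJC6 begins at base 43 of the transcript from the second of its 2 RefSeq starts, and the window at the first start holds none. That second start lies 44794 bases inside the outermost end of the annotated gene.

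RefSeq windows of 300 bases (250 before to 50 after a start) were matched by symbol for 57 of the 65 members, with 74 windows, since some genes have several starts. A gene was counted where any of its windows held the letters. GAANNTTC was in 6 of the 6 genes that rose, in 9 of the other 51 members and in 8.21% of 27305 genes. The 6 include HSPA1A, HSPA1B and HSPA1L, which are not separate cases, and DNAJC6, which has the match only at its second start. TTCNNGAA was in 2 of the 6, in 10 of the 51 and in 9.46% of all. A run of 3 units was in 2 of the 6, in 5 of the 51 and in 0.61% of all. Among the 13 other members with a match to either pair were DNAJB1, HSP90AA1, HSP90AB1 and HSPD1. Matches to GAAANNGAA, the core of the interferon-stimulated response element, on both strands, were in 0 of the 6, in 4 of the 51 and in 9.86% of all. The 6 genes were grouped here by their measured change, so these counts are a description without a test, and a window without a match says only that these letters are not there.

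Further members pointed upward without passing the limma test. HSPH1, an HSP110 that acts as exchange factor for HSP70, had counts of 14989, 13778 and 16955 in the controls and 17780, 18967 and 21504 in the IFNg libraries (log2 difference 0.35 ± 0.10, limma adjusted p = 0.094). DNAJB1, a heat-inducible J protein that acts with HSP70 and HSPH1 on aggregates, had 5758, 6188 and 8494 against 8697, 9450 and 8938 (0.43 ± 0.13, 0.111). HSPA12A, a distant HSP70 relative that is on none of the compartment lists, had 702, 661 and 726 against 980, 1009 and 970 (0.50 ± 0.15, 0.106). In all 3 genes every IFNg library was above every control, narrowly so for HSPH1 and DNAJB1, where control 3 came closest. HSPA2, a testis HSP70, had 80.3, 107 and 194 against 265, 114 and 295 and overlapped between the groups (0.80 ± 0.44, 0.447). HSPA6, a strictly inducible HSP70, had only 78 reads over the controls and 118 over the IFNg libraries (1.33 ± 0.92, 0.564), and 45.5% of its 50-base stretches also occur in HSPA7.

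Control 3 stood above control 1 and 2 for HSPA8, HSPA1A, HSPA1B, DNAJA1, DNAJB1 and HSPH1, and what set it apart was not tested. Without control 3, limma called 9 members higher, the same 6 with HSPH1 (adjusted p = 0.0155), DNAJB1 (0.00117) and DNAJC9 (0.0377). Calls rose over the whole table as well, from 3.27% to 5.45% of all genes higher. Without both libraries numbered 3, it called 8 higher, the same 6 with HSPH1 (0.00911) and DNAJB1 (0.000525), where 5.67% of all genes were higher. The log2 differences were then 2.11 for HSPA1A and 2.23 for HSPA1B. Without any 1 of the other 5 libraries, 3 or 4 members were called, always including HSPA8, HSPA1B and DNAJA1. In these fits 2.12% (without IFNg 1) to 2.62% (without control 1) of all genes were higher. The 4 were called without IFNg 3, where 2.46% of all genes were higher.

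**Figure D2:**
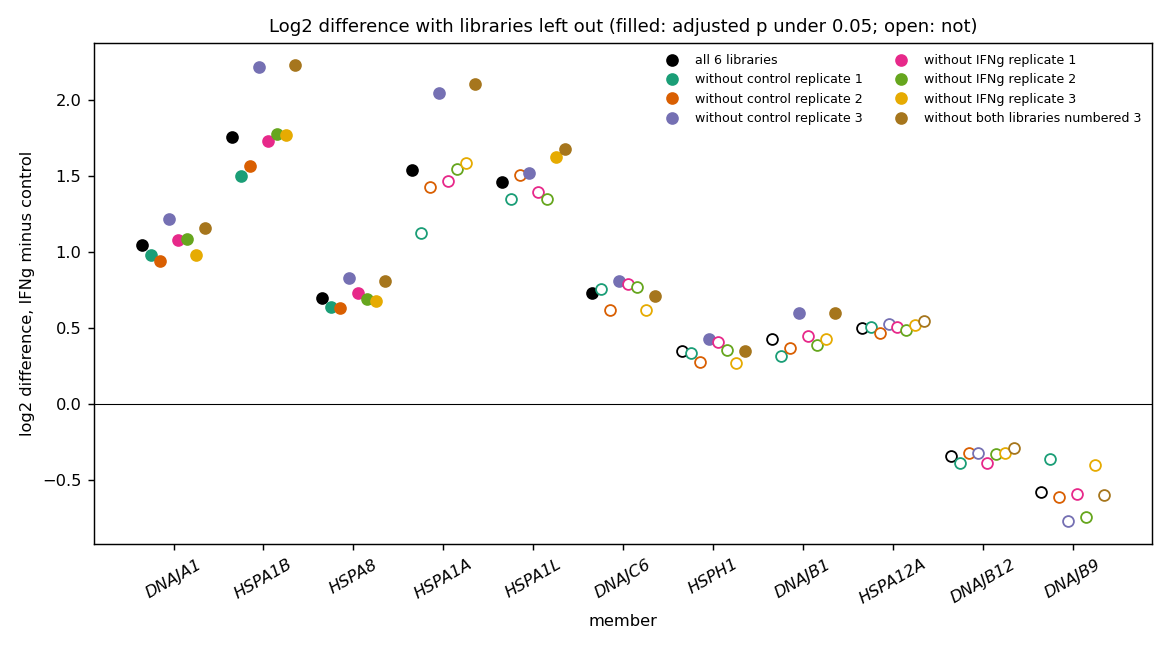
Log2 difference, IFNg minus control (y axis), of 11 members (x axis) with all 6 libraries (black) and with libraries left out (colours); filled points have a limma adjusted p under 0.05 and open points do not. DNAJA1, HSPA1B and HSPA8 stay filled in all 8 fits, and HSPA1A moves between 1.13 without control 1 and 2.11 without both libraries numbered 3.

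**Figure D3:**
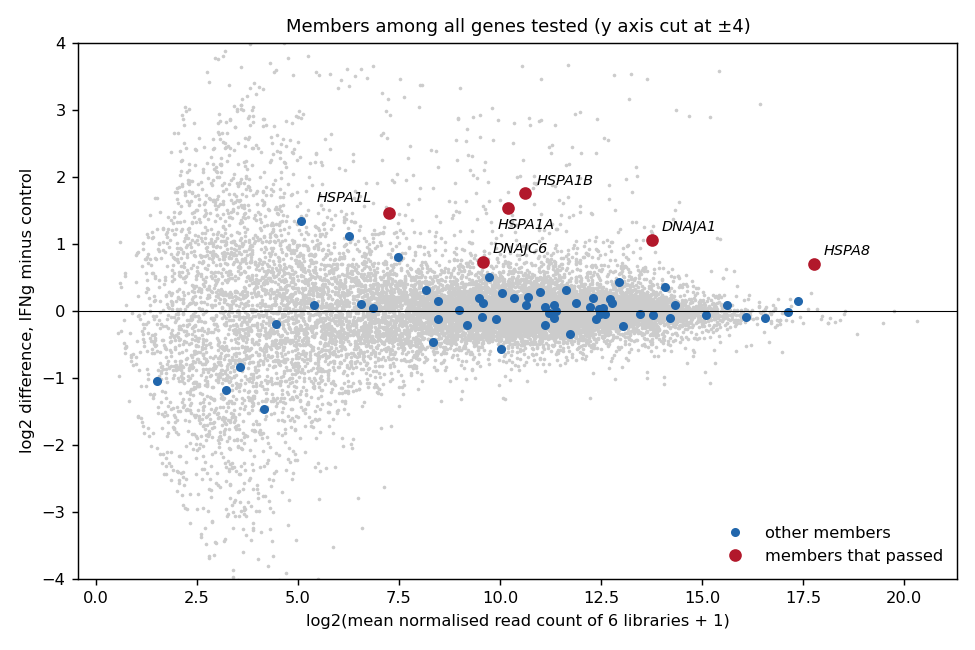
Log2 difference, IFNg minus control (y axis, drawn to ±4), against log2(mean normalised read count of the 6 libraries + 1) (x axis) for 15546 genes (light grey), with the 6 members that passed in red and the other 59 in blue. Most members lie near the grey band around 0, and HSPA8 (0.70) and DNAJA1 (1.05) lie above it on the right, among genes with many reads.

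HSP90 genes differed little between the groups. HSP90AA1, the stress-inducible cytosolic form, had counts of 171470, 153802 and 158673 in the controls and 176676, 181156 and 177123 in the IFNg libraries. All IFNg libraries were above all controls, but by a small margin (log2 difference 0.15 ± 0.09, limma adjusted p = 0.519). HSP90AB1, the constitutive form, was 143689 ± 7982 and 142151 ± 11232 (-0.02 ± 0.10, 0.966). HSP90AA1 had 1.12 ± 0.0758 reads per HSP90AB1 read in control and 1.26 ± 0.1001 in IFNg libraries, and these ratios overlapped between the groups. For HSP90AB1, 16.6% of 50-base stretches also occur in another gene's transcripts.

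In the endoplasmic reticulum, 8 of 14 members had a log2 difference below 0, beside 8110 of all 15546 genes tested. None of the 14 passed in limma, and their median was -0.04, against -0.01 for all genes tested. HSPA5 (BiP), the HSP70 of this compartment and a sentinel of the unfolded protein response, had counts of 76000, 71897 and 66961 in the controls and 65467, 67199 and 67753 in the IFNg libraries. Control 3 lay within the range of the IFNg libraries (-0.10 ± 0.09, limma adjusted p = 0.664). Its share of HSPA reads was 23.0% ± 2.87 in control and 16.05% ± 0.3102 in IFNg libraries, in which HSPA8 took more. HSP90B1 (GRP94) was 99887 ± 13547 and 92308 ± 4001 (-0.11 ± 0.11, 0.725).

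The 5 members with the most negative differences, among those with a mean of at least 100, included DNAJB9, DNAJB12 and HSPA13 of this compartment. None of the 5 passed the main limma test. DNAJB9, a J protein that assists the disposal of misfolded chains, had counts of 1663, 1178 and 937 in the controls and 836, 1023 and 645 in the IFNg libraries, with some overlap (-0.58 ± 0.23, limma adjusted p = 0.239). DNAJB12, a membrane J protein of the same compartment, had 3564, 3949 and 3934 against 3191, 2939 and 2897, with no overlap (-0.34 ± 0.10, 0.101). With a term for libraries numbered 3 both passed as lower (DNAJB9 0.0313, DNAJB12 0.0285). HSPA13, an atypical HSP70 of microsomes, had 9414, 8358 and 9294 against 7634, 6692 and 8892 and overlapped (-0.23 ± 0.11, 0.369). DNAJC17, a nuclear J protein, was 368 ± 29.4 and 280 ± 117 (-0.47 ± 0.30, 0.519), and DNAJC19, a part of the mitochondrial import motor, had 2449, 2306 and 2349 against 1873, 2299 and 1976, with no overlap by a narrow margin (-0.21 ± 0.12, 0.457).

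No mitochondrial member passed the limma test. In 1 of the 10, DNAJC19, the groups did not overlap and IFNg was lower, beside 9.28% of all genes tested. HSPA9 (mortalin), the HSP70 of the matrix, was 35760 ± 3054 in control and 34231 ± 1941 in IFNg libraries (log2 difference -0.06 ± 0.09, limma adjusted p = 0.833). HSPD1 (HSP60) was 48708 ± 3856 and 51431 ± 3890 (0.08 ± 0.10, 0.783), and its lid HSPE1 (HSP10) was 4702 ± 626 and 4897 ± 912.5 (0.05 ± 0.15, 0.924). The 10 mitochondrial members ranged from -0.21 to 0.19.

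**Figure D4:**
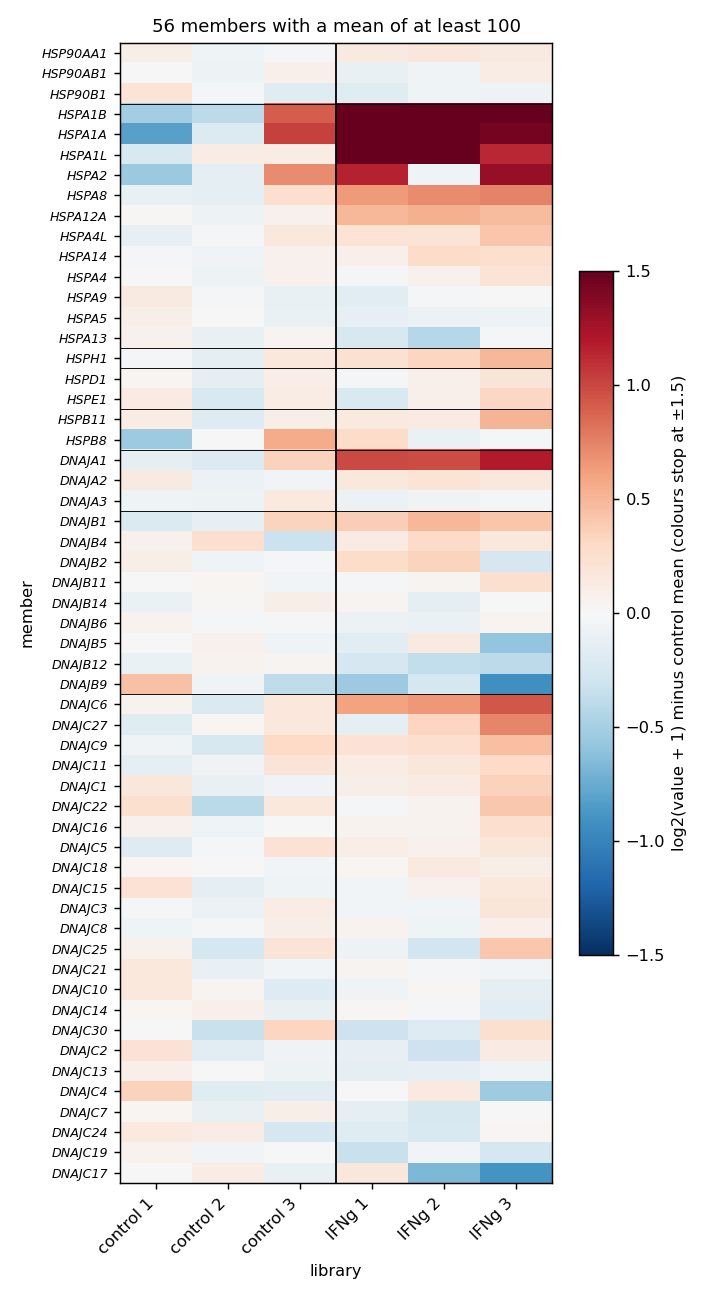
Log2(value + 1) of each of the 56 members with a mean of at least 100 (rows, by class) in the 6 libraries (columns), minus the mean of the 3 controls; red is above and blue below, and colours stop at ±1.5. HSPA1A, HSPA1B, HSPA1L, HSPA8, DNAJA1 and DNAJC6 are red in all 3 IFNg libraries, and control 3 is also red for HSPA1A and HSPA1B, while most rows stay pale.

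Small heat shock proteins were little read in these libraries. HSPB1 (HSP27) had 75 reads over the controls and 31 over the IFNg libraries, with normalised counts of 0.929 to 31.7. These libraries cannot show a modest change with so few reads (log2 difference -1.46 ± 0.99, limma adjusted p = 0.551). Of its 50-base stretches, 5.84% also occur in a pseudogene. HSPB8, a partner of BAG3, was 115.6 ± 44.1 and 114.6 ± 16.8, and HSPB6 had 82 and 51 reads. HSPB11, which despite its symbol is a subunit of the intraflagellar transport complex, was 962 ± 109 and 1155 ± 182 (0.26 ± 0.17, 0.526).

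The remaining J proteins mostly kept their levels within the spread between libraries. Of 9 DNAJB genes, 4 had a difference above 0 and 5 below, and none passed in limma. DNAJB6, a suppressor of aggregation and the DNAJB gene with the most reads, was 11427 ± 390 and 11072 ± 592 (log2 difference -0.05 ± 0.09, limma adjusted p = 0.867). Of 27 DNAJC genes, 14 were above and 13 below 0, with a median of 0.01. DNAJC13, an endosomal J protein, was 19725 ± 998 and 18298 ± 447 (-0.11 ± 0.08, 0.61). DNAJC12, DNAJC5B and HSPE1-MOB4 had 35, 33 and 10 reads over the controls and 15, 36 and 2 over the IFNg libraries, too few to compare.

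**Figure D5:**
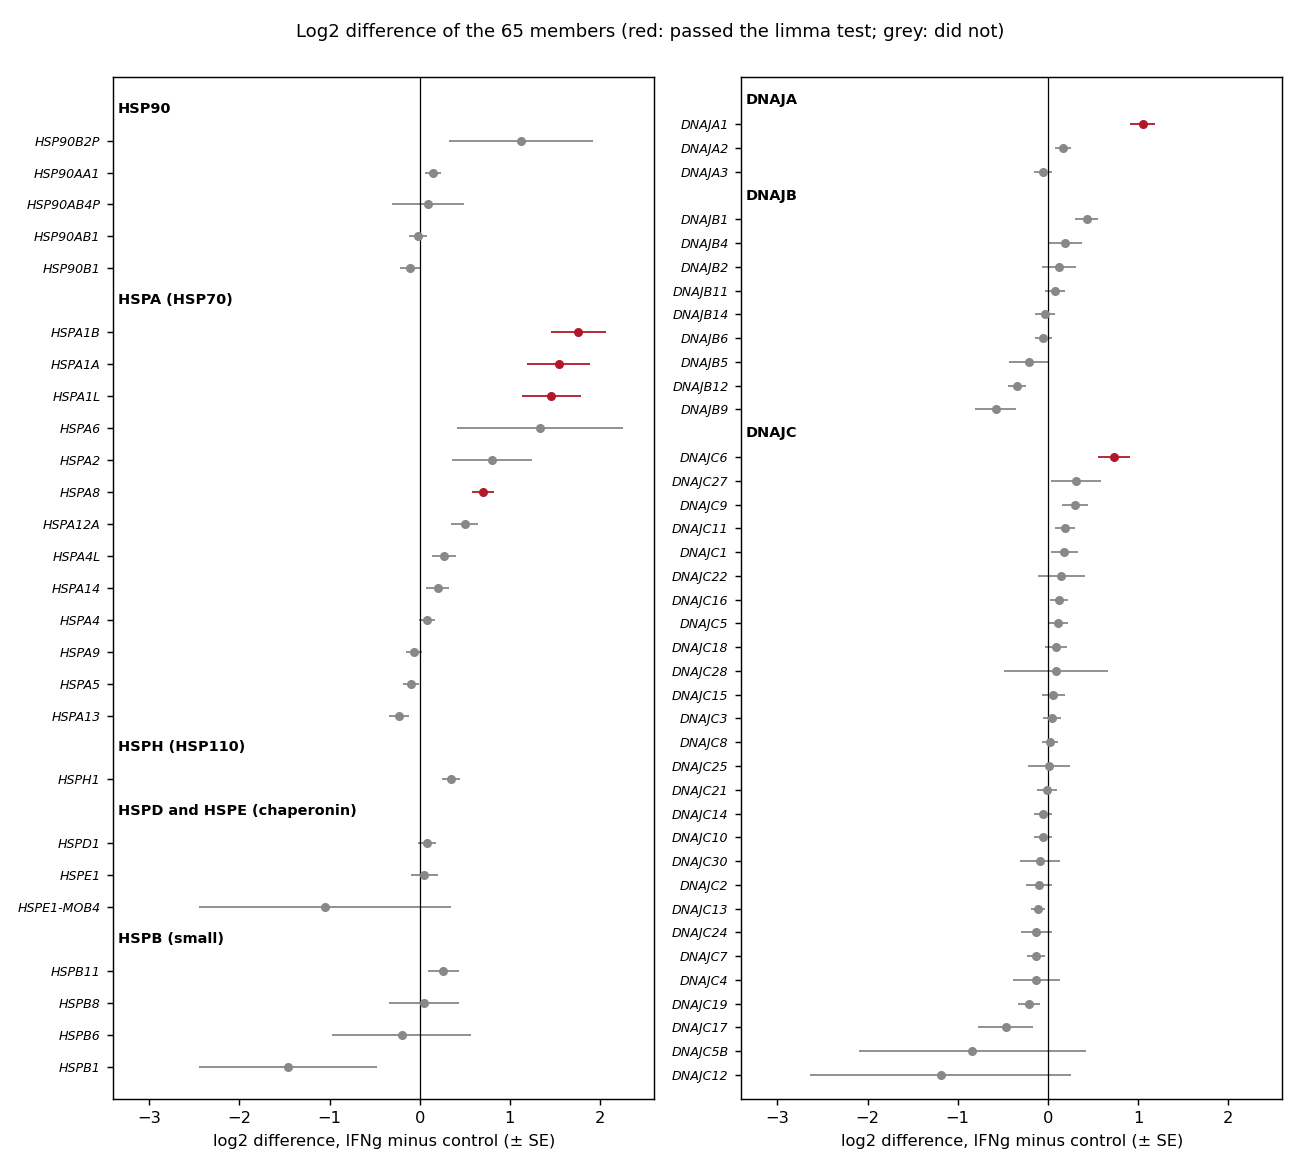
Log2 difference, IFNg minus control, with the SE of the fit (x axis) for the 65 members (y axis), HSP genes on the left and DNAJ genes on the right, ordered within each class. Red members passed the limma test and grey ones did not; HSPA1B (1.76) is the highest, and the longest bars belong to members with few reads such as DNAJC12 and HSPE1-MOB4.

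Lists of general knowledge gave 97 measured genes that act with the members, share their regulators or are the neighbours of HSPA1A, HSPA1B and HSPA1L above. Of these 97 genes, 4 rose (4.12%), the neighbours C2 and CFB among them, and 1 fell. These shares were close to the 3.27% and 1.05% of all genes tested. The heat shock factors did not pass, with 0 of 5 measured in either direction. HSF1, whose activity is set mainly on the protein, had counts of 5515, 6435 and 5626 in the controls and 5950, 5820 and 4645 in the IFNg libraries (log2 difference -0.10, limma adjusted p = 0.762). Of 13 measured HSF1 targets outside the members, 0 rose and 0 fell, with a median log2 difference of 0.04. Of these 13, 8 had a difference above 0, and in 3 every IFNg library was above every control, beside 10.7% of all genes. Among these were CHORDC1, an HSP90 co-chaperone (5559, 4216 and 5008 against 6102, 5880 and 6811), and FKBP4, an immunophilin (9019, 9325 and 10393 against 11237, 11293 and 11428). Their adjusted p was 0.14 and 0.189. BAG3, an exchange factor of HSP70, was at 7821, 8100 and 8881 against 8701, 8443 and 7957 and overlapped.

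None of 15 exchange factors and linkers of HSP70 and HSP90, and none of 14 subunits of the cytosolic chaperonin TRiC and of prefoldin, passed in limma. STIP1 (HOP), which joins HSP70 to HSP90, was at 15470, 14796 and 17748 in the controls and 18100, 17616 and 18703 in the IFNg libraries (0.18, limma adjusted p = 0.379). Of 20 measured genes on the list of HSP90 co-chaperones, 2 rose and 0 fell, beside 3.27% and 1.05% of all genes tested. That list also holds TRAP1, which is itself an HSP90 paralogue and did not pass. FKBP5, an immunophilin of steroid receptor complexes, went from 2074, 1864 and 2506 to 2840, 3023 and 3905 (0.60 ± 0.15, 0.0466). The FKBP5 call was lost without control 1 (0.158), control 2 (0.234), IFNg 1 (0.0727), IFNg 2 (0.106), IFNg 3 (0.168) or the variance trend (0.262). NUDCD1, a gene with a NudC-type domain, went from 6739, 6757 and 6798 to 10958, 10893 and 12773 (0.77 ± 0.09, 0.000274), with every IFNg library far above the controls.

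Of 22 genes of the endoplasmic reticulum and its unfolded protein response outside the members, 0 rose and 1 fell, with a median of -0.04. The gene that fell was HERPUD1, which takes part in the degradation of misfolded proteins, from 6313, 5765 and 5391 to 4083, 3938 and 3936 (-0.54 ± 0.10, limma adjusted p = 0.00635). Its 3 IFNg libraries lay below every control, and the call was lost without the variance trend (0.0765). None of 11 genes of the mitochondrial unfolded protein response outside the members passed in limma (median -0.03). Over all 65 members together, reads made up 1.35%, 1.27% and 1.41% of the libraries in control 1, 2 and 3 and 1.47%, 1.52% and 1.6% in IFNg 1, 2 and 3. Most of this difference lay in HSPA8. On average all members took 1.343% in control and 1.529% in IFNg libraries, and HSPA8 alone 0.248% and 0.399%. The median log2 difference of the 65 members was 0.06.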

How the data were processed

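RNA from 3 control and 3 IFNg samples was depleted of ribosomal RNA and sequenced from stranded total RNA libraries as paired ends of 50 cycles, per the labels' protocols. Cuffdiff 2.2.1, Cufflinks, TopHat2 2.0.13 and FastQC 0.11.3 are listed without roles, per the submitters' processing notes, with the builds GRCh37 and hg19. How reads were counted, and with which strand setting, is not given. The deposited signal values are named RPKM, but 100% of positive values in each library were whole multiples of 1 step (tolerance 0.001 reads), so they are reads divided by 1 size factor, which ranged from 0.863 to 1.20.

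The main test was limma 3.58.1 (R 4.3.3) on log2(value + 1) with group as its single term and a trend of the variance with level, 2-sided, over the genes that reached 0.5 in 3 or more libraries. It was checked on simulated data with known changes. edgeR 4.0.16 (quasi-likelihood, TMM) and DESeq2 1.42.0 on recovered reads, other pseudocounts, filters and scalings, and fits without single libraries were alternatives. Differences are IFNg minus control with the SE of the fit, on the log2(value + 1) scale, which understates the change of low genes. Named genes were those that passed, the class member with the most reads, the 5 largest differences each way at a mean of at least 100, and members the compartments turn on; HSPA6, HSF1, BAG3, CHORDC1, FKBP4, STIP1, LSM2 and the members with few reads were added after their values were seen. Members and lists were chosen with earlier results of these data known. Shared 50-base stretches were counted in GENCODE 29 transcripts, and promoters came from RefSeq (GRCh38.p14).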

Additional observations from a re-analysis of the deposited data

How the results depend on the processing

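The 6 members called higher were the same with TMM scaling, a pseudocount of 0.5 or 5, no filter or a filter at a value of 10, and the count was also 6 without pseudogenes and read-through genes or with DNAJ antisense genes kept. Without the variance trend limma called 1 member higher, HSPA1L (adjusted p = 0.0294), and the adjusted p was 0.0714 for DNAJA1, 0.102 for HSPA8, 0.123 for DNAJC6, 0.148 for HSPA1B and 0.274 for HSPA1A. That model called 279 of all genes higher against 509. edgeR called 5 of the 6, and DESeq2 called the same 5 with HSPA12A and HSPH1. Leaving out 1 library each gave 3 to 9 members higher and 0 lower. In these fits 2.12% to 5.45% of all genes were higher and 0.238% to 2.93% lower. With the replicate number as a block (replicate block), 8 members were higher, the same 6 with DNAJB1 and HSPH1, and 2 lower, DNAJB12 and DNAJB9, while 5.89% and 3.53% of all genes were called. A term for libraries numbered 3 gave the same counts, 8 and 2. Deviations of same-numbered libraries correlated at 0.044, 0.021 and 0.111 over genes, and control 2 correlated slightly more with IFNg 1 (0.022) than with IFNg 2. The libraries numbered 3 gave the highest value, 0.111. Control 3 correlated at -0.068 and -0.052 with IFNg 1 and 2, and IFNg 3 at -0.067 and -0.040 with control 1 and 2. The labels give only a shared number, and whether libraries of a number were handled together was not tested. Signs of small differences turned for HSPA9 (0.00 without control 1, and down to -0.12 without control 3), HSPE1 (-0.07 without control 2, -0.08 without IFNg 3, up to 0.19 without IFNg 1, -0.02 without both libraries numbered 3) and HSP90AB1 (0.02 without control 3, 0.03 without IFNg 1, 0.00 without IFNg 2, and down to -0.08 without IFNg 3). The cause of these changes was not tested. Members with under 100 reads in a library are limited by their few reads, and why these were few was not tested.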
